A study of Mus musculus with 1699 samples.

Results

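The genes described here are 9 members of the proneural and Notch pathways, taken by name from the 39468 gene entries of the data: the proneural transcription factors Neurog2, Neurod1, Nhlh1 and Nhlh2, the Notch ligands Dll1 and Dll3, the receptor Notch1, and the Hes genes Hes5 and Hes6. Cells were sorted for eGFP fluorescence from the dissected ventral midbrain of Pitx3eGFP mice, in which eGFP replaces Pitx3 coding sequence, and single cells were sequenced with Smart-seq2, a full-length method that does not keep the strand of the RNA. Heterozygous Pitx3eGFP/wt cells came from 3 embryonic days, E13.5, E15.5 and E18.5, and from postnatal days P1, P7 and P90, and homozygous Pitx3eGFP/eGFP cells, which have no intact copy of Pitx3, from E13.5 and P1. Both genotypes carry the eGFP allele, and the sort selects for eGFP fluorescence, not for Pitx3 mRNA, which was over RPKM 10 in 42.5% of P90 cells. The sorted cells are not all midbrain dopamine (mDA) neurons: Th, the rate-limiting enzyme of dopamine synthesis, was over RPKM 10 in 69.8% of P90 cells. The comparisons ask at which stages the neurogenic genes are still detected in the sorted cells, and whether they differ in cells without Pitx3. They also ask whether at E13.5 these genes mark the cells that do or do not express Th.

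Neurons arise from dividing progenitors through basic helix-loop-helix (bHLH) proneural factors, which bind E-box sequences and switch on neuronal genes. Among the genes they switch on are the Delta ligands, which bind Notch receptors on neighbouring cells, where the released Notch intracellular domain acts with the DNA-binding protein RBPJ to raise Hes repressors and so keeps the neighbour a progenitor. In the ventral midbrain Neurog2 is known to be needed for the normal production of mDA neurons.

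Levels are given in RPKM (reads per kilobase of transcript, scaled to the mapped reads of the cell), and a gene is called detected in a cell where its RPKM was over 10. After cells of low quality and cells with at least 3 oligodendrocyte-lineage markers, among them Olig1, Olig2 or Sox10 (9.59% of all), were left out, 1486 of 1699 cells remained. Of these, Pitx3eGFP/wt cells made up 9.42% from E13.5 (140 cells), 9.49% from E15.5 and 12.4% from E18.5, and after birth 17.97% from P1, 6.06% from P7 (90 cells) and 21.9% from P90. Pitx3eGFP/eGFP cells made up 12.05% (E13.5) and 10.7% (P1). The cells hold from 100007 to 8634201 reads each. The animals are not identified, so each stage and genotype is 1 sample, no difference between them has a replicate check, and no p-value is given. Intervals are exact 95% Clopper-Pearson intervals for shares and Newcombe intervals for differences of shares, and they cover counting error only. For a share of 0 the limit printed is instead 3 counts out of the cells of the group.

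Pitx3 was detected in 87.1% of E13.5 Pitx3eGFP/wt cells, with a mean of 416 RPKM, and in 61.5% of E13.5 Pitx3eGFP/eGFP cells, with a mean of 18.8 RPKM. At P1 the means were 103.2 and 8.30 RPKM, so the targeted gene followed the labels at both stages, with residual reads in the homozygous cells. At E13.5 both genotypes had 9 of 10 mDA markers and 7 of 8 young-neuron markers detected in the majority of cells, and no cell of either genotype had 3 or more of the 8 markers of cycling cells. Of those 8, Mki67, Top2a, Ccnb1 and Aurkb were detected in no cell of either genotype, while Pcna, a DNA replication factor, was detected in 41.4% of Pitx3eGFP/wt and 44.1% of Pitx3eGFP/eGFP cells. At least 3 of the 8 radial glia and progenitor markers were detected in 12.9% and 15.1% of cells. Genotype at E13.5 cannot be told apart from library preparation, because all Pitx3eGFP/eGFP libraries held spike-in RNA and no Pitx3eGFP/wt library did, and their median depths were 753256 and 2357898 reads per cell.

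The upstream sequences of the 5 members on which the results turn are shown because the members act on one another through DNA: proneural factors and Hes proteins bind promoters, and the Notch nuclear complex reads the RBPJ core. They are the 250 bases before the RefSeq transcription start on build GRCm38.p6, written 5′ to 3′ on the strand of the gene: Nhlh1 at chr1:172057597-172057846 (minus strand), Nhlh2 at chr3:102009895-102010144 (plus strand), Neurod1 at chr2:79456637-79456886 (minus strand), Dll3 at chr7:28301786-28302035 (minus strand) and Hes5 at chr4:154960673-154960922 (plus strand). Capitals mark the E-box CANNTG, the Hes-type N-box CACNAG and the RBPJ core TGGGAA, each searched on both strands.
Nhlh1: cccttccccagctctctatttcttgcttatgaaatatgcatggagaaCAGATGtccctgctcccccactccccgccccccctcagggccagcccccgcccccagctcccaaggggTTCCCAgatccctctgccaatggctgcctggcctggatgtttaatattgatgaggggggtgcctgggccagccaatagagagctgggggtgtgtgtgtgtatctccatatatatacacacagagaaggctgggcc
Nhlh2: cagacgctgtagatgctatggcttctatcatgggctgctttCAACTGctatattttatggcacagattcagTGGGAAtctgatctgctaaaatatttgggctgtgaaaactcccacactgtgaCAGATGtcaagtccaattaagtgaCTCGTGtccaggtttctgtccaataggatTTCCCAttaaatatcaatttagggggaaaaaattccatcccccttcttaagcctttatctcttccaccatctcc
Neurod1: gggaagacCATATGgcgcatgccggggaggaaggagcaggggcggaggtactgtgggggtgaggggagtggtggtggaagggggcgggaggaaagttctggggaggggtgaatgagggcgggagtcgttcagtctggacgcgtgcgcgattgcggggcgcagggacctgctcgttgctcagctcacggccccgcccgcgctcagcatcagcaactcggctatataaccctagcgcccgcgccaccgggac
Dll3: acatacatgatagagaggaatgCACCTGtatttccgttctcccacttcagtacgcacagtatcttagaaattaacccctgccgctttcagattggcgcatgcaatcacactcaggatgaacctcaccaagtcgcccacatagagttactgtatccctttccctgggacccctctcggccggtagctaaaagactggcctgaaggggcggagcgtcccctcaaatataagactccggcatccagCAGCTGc
Hes5: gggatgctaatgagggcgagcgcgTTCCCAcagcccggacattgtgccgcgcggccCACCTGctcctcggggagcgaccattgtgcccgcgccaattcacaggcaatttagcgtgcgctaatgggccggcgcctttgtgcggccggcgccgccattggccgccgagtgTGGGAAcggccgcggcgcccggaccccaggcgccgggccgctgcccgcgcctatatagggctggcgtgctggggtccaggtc

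Hes5 held 2 RBPJ cores, the nearer of them 82 bases before the start, and Nhlh2 held 2, the nearer at 74 bases. Hes5 also held 1 E-box, and Nhlh2 held 2 E-boxes, 1 of them of the CAGATG kind, and 1 N-box. Dll3 held 2 E-boxes, the nearer of them at 7 bases and of the CAGCTG kind. Nhlh1 held 1 E-box, of the CAGATG kind, and 1 RBPJ core, and Neurod1 held 1 E-box. Among 32851 RefSeq promoter windows of the same length, 66.2% held at least 1 E-box, 13.0% CAGCTG, 14.4% CAGATG, 36.7% an N-box and 21.6% an RBPJ core. A single match is thus frequent, and the share of windows with 2 matches of a kind was not computed. The CAGCTG and CAGATG sites are kinds of E-box and are counted within it. The Neurog2 window held none of the motifs, which says only that these letters are not in those 250 bases.

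Neurog2 (chr3:127633135-127635631, plus strand), the proneural factor of the ventral midbrain, had its highest share at E13.5. It was detected in 12 of 140 E13.5 cells (8.57%, interval 4.51 to 14.5), in 6 E15.5 cells (4.26%) and in 0 E18.5 cells, which allows a share of up to 1.62%. At P1, P7 and P90 the shares were 0.749%, 1.11% and 3.08%. The share at E18.5 minus that at E15.5 was -4.26 percentage points (interval of the difference -8.97 to -1.19).

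Nhlh1 (chr1:172052292-172057573, minus strand), a bHLH factor that neurons switch on as they leave the cell cycle, was also most frequent at E13.5, and at P90 it had 1 positive cell where Neurog2 had 10. Its share was 7.14% at E13.5, 3.55% at E15.5 and 0 at E18.5, and no later group was above 1.12%. The highest cell reached 121.2 RPKM at E13.5 and 35.5 RPKM at E15.5. Mean Nhlh1 was 3.25 RPKM at E13.5 and 1.06 RPKM at E15.5, and the share at P90 minus that at E13.5 was -6.84 points (-12.3 to -3.32).

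Nhlh2 (chr3:102010076-102015492, plus strand), the close relative of Nhlh1, was the most widely detected of the 4 proneural factors at every stage. Its share was 72.1% at E13.5 (63.9 to 79.4), then 65.2% at E15.5 and 49.7% at E18.5, and after birth 44.6% (P1), 45.6% (P7) and 52.9% (P90, 47.3 to 58.5). Mean Nhlh2 was 104.5 RPKM at E13.5, then 87.6 RPKM at E15.5 and 43.4 RPKM at E18.5, and after birth 46.4 (P1), 43.9 (P7) and 21.05 RPKM (P90). E18.5 minus E15.5 was -15.5 points (-25.8 to -4.67), and for the other neighbouring pairs of stages the interval of the difference included 0. The mean at P90 was below that of E13.5 (log2 difference -2.26), and the P90 share ran from 41.5% to 65.2% over 4 plates.

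Neurod1 (chr2:79452521-79456751, minus strand), a bHLH factor of neuronal differentiation, kept a minority of cells at every stage. The share was 19.3% at E13.5, then 14.2% at E15.5 and 11.4% at E18.5, and after birth 16.5% (P1), 11.1% (P7) and 16.9% (P90). For each neighbouring pair of stages the interval of the difference included 0. The highest cell held 163.2 RPKM at E13.5, 793 at E15.5 and 316.8 at P90, so single cells with a high level were present in the adult sample as well.

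Dll1 (chr17:15367354-15376872, minus strand), the Delta ligand that activates Notch on neighbouring cells, was detected in 10.7% of cells at E13.5, then 12.8% at E15.5 and 18.4% at E18.5, and after birth in 15.7% (P1), 14.4% (P7) and 16.6% (P90). Here too each interval between neighbouring stages included 0. Dll3 (chr7:28293553-28302238, minus strand), a divergent Delta family member that does not activate Notch on neighbouring cells, was detected far more widely, in 41.4%, 36.9% and 44.9% of the embryonic cells by rising age and in 36.7% (P1), 28.9% (P7) and 42.2% (P90) after birth. The share of Dll3 stayed between 28.9% and 44.9% while its mean level was lower after E13.5: mean Dll3 was 81.1 RPKM at E13.5, then 53.2 RPKM at E15.5 and 28.5 RPKM at E18.5, and after birth 34.5 (P1), 22.2 (P7) and 25.9 RPKM (P90). P90 minus P7 was 13.3 points in share (1.91 to 23.2), and the other neighbouring stages had intervals that included 0. The mix of sorted cells also differs by stage. At P7, 10 cells had Nxph4 over 150 RPKM without Slc6a3 over it, and 27 the reverse. At P90 the first class was the larger, and the second held 69 cells. The part of this mix in the stage differences of any member was not tested.

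RPKM divided into the reads gives the transcript length used in each cell, and among cells with over 20 Dll3 reads this length was under 1000 bases in 3 of 58 cells at E13.5 (5.17%). It was so in 15.4% of cells at E15.5 and 32.5% at E18.5, and after birth in 29.5% (P1), 50% of 26 cells (P7) and 31.7% (P90). The annotation lists a coding Dll3 transcript of 2618 bases and retained-intron transcripts of 665 and 855 bases. Detection of Dll3 at the later stages therefore includes cells whose reads were assigned to short models, and whether those cells hold the coding mRNA was not tested.

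Notch1 (chr2:26457903-26516663, minus strand), the receptor, was close to undetected in the embryonic groups: 3 of 140 cells at E13.5 (2.14%), 1 cell at E15.5 (0.709%) and 5 cells at E18.5 (2.70%). It was detected in 4.49% of cells at P1 and 20% at P7 (12.3 to 29.8), and in 0 cells at P90, which allows up to 0.923%. The P7 share was 15.5 points over P1 (7.85 to 25.1), and P90 minus P7 was -20 points (-29.4 to -12.9). Hes5 (chr4:154960923-154962371, plus strand), the classic Notch target, was also most frequent at P7, at 4.29%, 4.96%, 5.95%, 11.99%, 21.1% and 8.62% from E13.5 to P90. P1 minus E18.5 was 6.04 points (0.51 to 11.2), P7 minus P1 9.13 points (0.70 to 19.2) and P90 minus P7 -12.5 points (-22.4 to -4.50). The E18.5 values differed by plate: all 5 Notch1-positive cells were among the 91 cells of plate 1 (5.49%) and none among the 94 of plate 2, and Hes5 was at 9.89% and 2.13%.

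Markers of other cell types were more frequent in Notch1-positive and in Hes5-positive cells at P7 and P1. Of the 18 Notch1-positive cells kept at P7, 16 had at least 3 markers of another cell type over RPKM 10, against 20 of the 72 cells without Notch1, and 10 of the 18 had an RPKM over 10 for Olig1, Olig2 or Sox10. Of these 3 oligodendrocyte-lineage markers, Olig1 was detected in 20%, Olig2 in 3.33% and Sox10 in none of the kept P7 cells. At P1, 10 of 12 Notch1-positive Pitx3eGFP/wt cells had such markers. For Hes5 it was 12 of 19 positive cells at P7, against 24 of the 71 others, and 15 of 32 at P1, against 16.2% of the others. With all such cells left out, a step chosen after the data were seen, P7 minus P1 was 2.77 points for Notch1 and 5.02 for Hes5, and P90 minus P7 was -3.70 and -4.60 points. The rule also takes Th-high cells: at P1, 24 of the 41 Pitx3eGFP/wt cells with at least 3 radial glia markers were Th-high. The part of glial cells in these values was not tested further. At E13.5 a single cell held 1214 RPKM of Hes5 and 275.7 RPKM of Notch1, which was 82.6% of all Hes5 and 80.2% of all Notch1 in that group. That cell had 1.13 RPKM of Th and all 8 radial glia and progenitor markers over RPKM 10.

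Hes6 (chr1:91411483-91414038, minus strand), a Hes family member that opposes Hes1 and promotes neuronal differentiation, was detected in the majority of cells at every stage. The share was 72.1% at E13.5, then 75.2% at E15.5 and 76.8% at E18.5, and after birth 64.4% (P1), 65.6% (P7) and 56.3% (P90). P1 minus E18.5 was -12.3 points (-20.4 to -3.75), and the other neighbouring stages had intervals that included 0. Depth and library preparation change between stages, and so did the shares of many genes: among genes detected in at least 5% of the cells, the interval lay over 0 for 5.44%, 50.2%, 2.44%, 5.27% and 37.8% of genes in the 5 neighbouring pairs from E15.5 minus E13.5 to P90 minus P7, and under 0 for 13.5%, 3.15%, 18.3%, 5.88% and 12%. The Dll3 difference from P7 to P90 and the Hes6 difference from E18.5 to P1 thus went the way of many genes, while the Nhlh2 difference from E15.5 to E18.5 went the way of few. Mean Hes6 was 125.3 RPKM at E13.5, 82.1 at E18.5 and 36.1 at P90. Per length, Hes6 and Nhlh2 had the highest means of the 9 members at E13.5 and Dll3 came next.

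**Figure D1:**
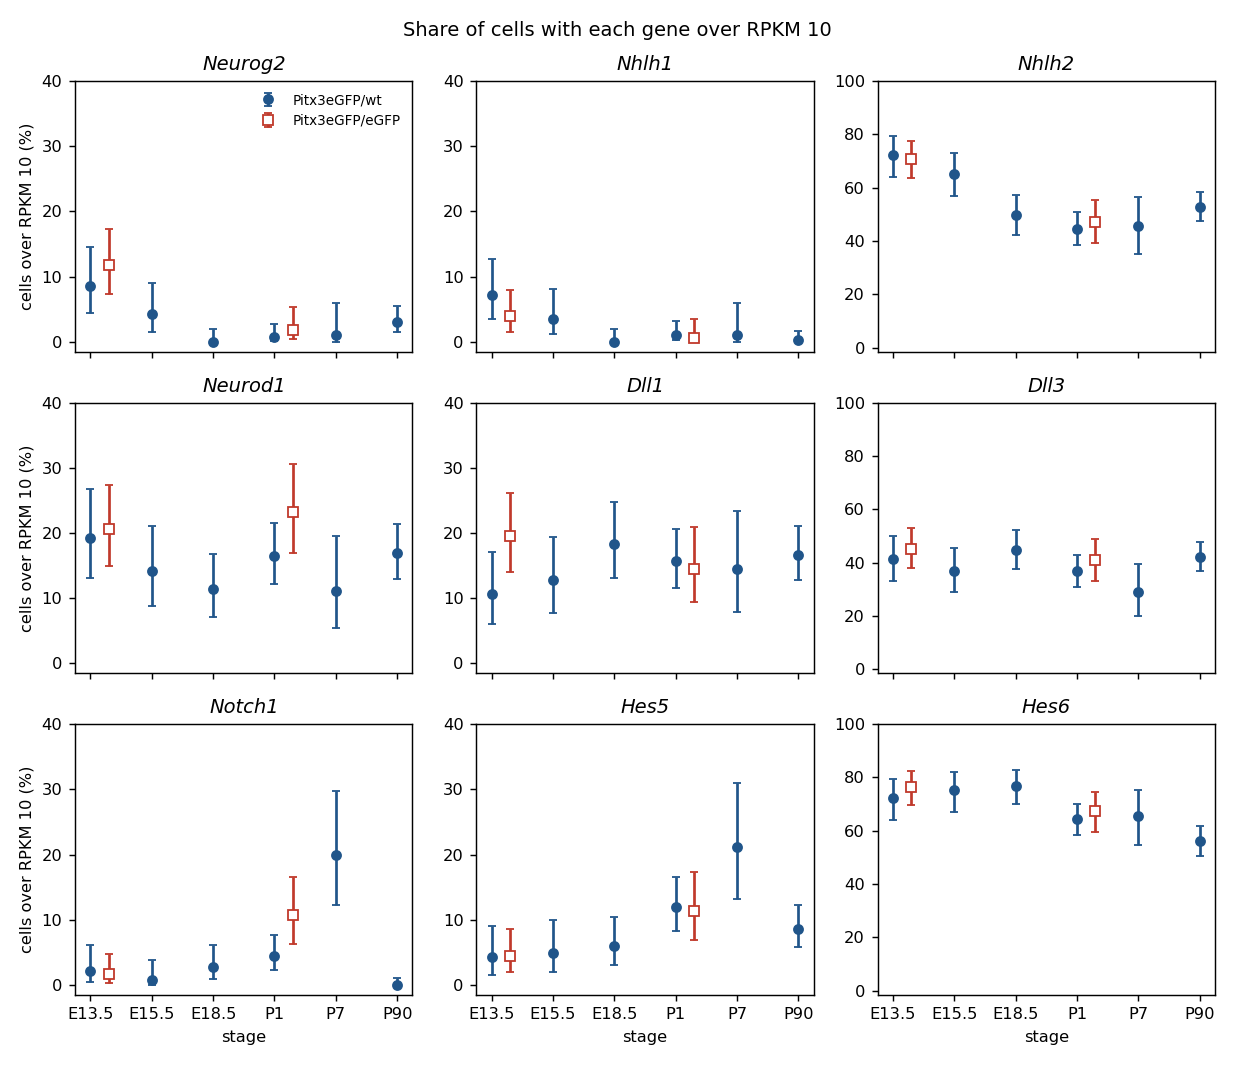
Share of cells over RPKM 10 (y axis, percent) by stage (x axis) and genotype (symbols) for each of the 9 genes; bars are exact 95% intervals for counting error, and the y axis ends at 100% for Nhlh2, Dll3 and Hes6 and at 40% for the others. Neurog2 and Nhlh1 start at 8.57% and 7.14% at E13.5 and reach 0 at E18.5, Nhlh2 steps from 65.2% to 49.7%, and Notch1 stands out at P7 with 20%.

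By mean level, with a call at a 2-fold difference of mean RPKM after adding 1, all 9 members passed the level filter between E13.5 and E15.5, and 2 of 9, Nhlh1 (log2 -1.04) and Notch1 (log2 -1.49), were called lower at E15.5, where 7.22% of 14772 genes were called lower. None of the 9 was called higher, against 7.45% of genes. The Notch1 call rests on the single cell above: without the highest cell of each group it was -0.57, and Nhlh1 was then -0.90. Notch1 passed the filter through E13.5 alone (means 2.45 and 0.23 RPKM), so for it only a lower call was possible. Between E15.5 and E18.5, 8 members passed the filter and 4 were called lower: Neurog2 (log2 -1.58), Nhlh1 (-1.01), Neurod1 (-1.15) and Hes5 (-1.29), against 5.29% of 15006 genes. Neurog2 (means 2.17 and 0.06 RPKM) and Nhlh1 (1.06 and 0.03 RPKM) passed the filter through E15.5 alone, so for them only a lower call was possible. No member was called higher, against 11.5% of genes. Nhlh2 stood at the limit, at -0.996. The median log2 difference of the members was -0.25 in the first comparison and -1.003 in the second, and the medians over all genes were -0.02 and -0.00. Without the highest cell of each group, Neurog2 stayed past the limit at -1.18 and Nhlh2 passed it at -1.03, while Nhlh1 was -0.86, Neurod1 -0.99 and Hes5 -0.17. Nhlh1 was not called without E18.5 plate 1 (-0.98), nor Hes5 without plate 2 (-0.54). E18.5 libraries held spike-in RNA and those of E13.5 and E15.5 did not, so this step cannot be told apart from library preparation. The same holds for P90, which had spike-in RNA, against P7, which had none, and P1 libraries were of both kinds.

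At E13.5 the Pitx3eGFP/eGFP shares were 11.7% for Neurog2, 3.91% for Nhlh1, 70.9% for Nhlh2, 20.7% for Neurod1, 45.3% for Dll3, 1.68% for Notch1, 4.47% for Hes5 and 76.5% for Hes6. The interval of the difference from Pitx3eGFP/wt included 0 for each of these 8, whose differences ran from -3.23 points for Nhlh1 to 4.39 points for Hes6. For Nhlh2 the difference was -1.19 points (-10.9 to 8.85), and for Neurod1 1.38 points (-7.64 to 10.03), so differences within those bounds remain possible.

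For Dll1 the interval at E13.5 lay off 0. It was detected in 35 Pitx3eGFP/eGFP cells (19.6%) and 15 Pitx3eGFP/wt cells (10.7%), 8.84 points apart (0.77 to 16.5). Among genes detected in at least 5% of the cells, the interval lay over 0 for 1 of 7 members and for 18.3% of 11574 genes, and under 0 for none of the 7 and for 4.02% of genes, so the Dll1 difference is near the background of this comparison. Its 3 sequencing plates of Pitx3eGFP/eGFP cells ran from 17.1% to 31.8%. Cut to 500000 reads in each cell, which leaves out 66 shallower Pitx3eGFP/eGFP cells, the shares were 19.5% and 9.29%.

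In mean RPKM at E13.5, 2 of 9 members, Notch1 (log2 -1.35) and Hes5 (-1.33), were called lower in Pitx3eGFP/eGFP cells, against 4.77% of 14563 genes, and none higher, against 4.35%. Both calls rest on the 1 Pitx3eGFP/wt cell described above: without the highest cell of each group they were -0.27 and 0.38. Notch1 passed the filter through the Pitx3eGFP/wt cells alone (means 2.45 and 0.35 RPKM), so for it only a lower call was possible. Without Pitx3eGFP/eGFP plate 4 Hes5 was not called (-0.83). The member median was -0.29 and that of all genes -0.03.

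At P1 the shares in Pitx3eGFP/eGFP cells were 1.89% for Neurog2, 0.629% for Nhlh1, 47.2% for Nhlh2, 23.3% for Neurod1, 14.5% for Dll1, 40.9% for Dll3, 11.3% for Hes5 and 67.3% for Hes6, and each interval of the difference from Pitx3eGFP/wt included 0. Against the 94 Pitx3eGFP/wt cells with spike-in RNA alone, as in the Pitx3eGFP/eGFP libraries, Neurod1 was 12.6 points higher (10.6% and 23.3%, interval 2.82 to 21.2) and Notch1 8.56 points higher (1.98 to 14.5). These are 2 of 7 members over 0 against 5.51% of 12698 genes, with none under 0 against 5.08%. For the other 7 of the 9 the interval included 0. Those 94 cells are all of 1 plate and the Pitx3eGFP/eGFP cells of 2 others, so genotype cannot be told apart from plate. Among Pitx3eGFP/wt cells, Neurod1 was at 10.6% with spike-in RNA and 19.7% without. Here and against all Pitx3eGFP/wt cells, Notch1 passed the 5% filter through the Pitx3eGFP/eGFP cells alone, so only a higher share was possible. Against all Pitx3eGFP/wt cells Notch1 was higher, at 10.7% against 4.49%, by 6.20 points (1.15 to 12.3), the 1 of 7 members with an interval over 0, against 18.3% of 12638 genes, which is near the background. None of the 7 lay under 0, against 2.56% of genes. Of the 17 Notch1-positive Pitx3eGFP/eGFP cells at P1, 15 had at least 3 markers of another cell type, and with such cells left out, a step chosen after the data were seen, the difference was 0.82 points. It was 10.32 points without Pitx3eGFP/eGFP plate 1 and 1.92 points without plate 2. Of 8 members past the filter, 1, Hes5, was called lower in mean RPKM (log2 -1.24, means 53.01 and 21.8 RPKM), against 3.44% of 16007 genes, and none higher, against 4.14%. Without Pitx3eGFP/eGFP plate 2 no member was called (Hes5 -0.93), and without plate 1 Neurog2 was called higher beside the lower call of Hes5. Neurog2 passed the filter through the Pitx3eGFP/eGFP cells alone (means 0.16 and 1.11 RPKM), so for it only a higher call was possible. The direction of Hes5 depended on the cells used. All Pitx3eGFP/eGFP cells and 94 of the Pitx3eGFP/wt cells had spike-in RNA, and among spike-in cells alone the log2 difference was 1.98, with means of 4.78 and 21.8 RPKM. The difference was also positive with genes detected counted over all entries, and without cells holding at least 3 markers of another cell type. The median of the members was -0.28, beside -0.00 for all genes.

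Th divided the E13.5 cells unevenly in the 2 genotypes. Of 140 Pitx3eGFP/wt cells, 90 had Th over 150 RPKM (Th-high), 44 had 10 or less (Th-low) and 6 lay between. Of the Pitx3eGFP/eGFP cells, 77 were Th-high, 85 Th-low and 17 between. Cells near the limits were few: the highest Th-low cell held 7.26 and 8.53 RPKM of Th in the 2 genotypes and the lowest Th-high cell 164.5 and 157.7 RPKM. In Pitx3eGFP/wt cells the Th-low class still had 8 of 10 mDA markers detected in the majority of cells, and in Pitx3eGFP/eGFP cells 7 of 10.

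In Pitx3eGFP/wt cells no member differed between the Th classes beyond counting error, while the interval lay under 0 for 4.3% and over 0 for 3.13% of genes detected in at least 5% of the cells. Neurog2 was detected in 10% of Th-high and 6.82% of Th-low cells, Nhlh1 in 5.56% and 11.4%, Nhlh2 in 74.4% and 68.2%, and Neurod1 in 18.9% and 20.5%. For the ligands the shares were 11.1% and 11.4% for Dll1 and 42.2% and 36.4% for Dll3. Notch1 was found in 1 of 90 and 2 of 44 cells, and Hes5 in 2.22% and 6.82%. Hes6 had the widest gap, 76.7% of Th-high and 61.4% of Th-low cells, a difference of -15.3 points (-31.9 to 0.86). With a call at 20 points among genes detected in at least 5% of the cells, 7 members could be called and 0 were, against 1.55% of 11340 genes lower and 1.11% higher in Th-low cells. The intervals are wide with 44 Th-low cells: for Dll3 the difference was -5.86 points (-22.1 to 11.8), and for Neurod1 1.57 points (-11.6 to 17.1).

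In Pitx3eGFP/eGFP cells the interval of the difference between the classes lay off 0 for 3 of 6 members, 2 under 0 and 1 over 0, against 4.02% and 4.8% of 11516 genes. Neurod1 was detected in 29.9% of Th-high and 9.41% of Th-low cells (-20.5 points, -32.4 to -8.32), with means of 21.5 and 3.03 RPKM. Dll3 was detected in 59.7% and 34.1% (-25.6 points, -39.4 to -10.2), with means of 66.9 and 31.5 RPKM. Both were thus the more frequent in Th-high cells. Dll1 went the other way, 9.09% of Th-high and 27.1% of Th-low cells (18.0 points, 6.08 to 29.2). By the 20-point call, 2 of the 6 members that could be called, Neurod1 and Dll3, were lower in Th-low cells, against 0.86% of 11516 genes, and none was higher, against 0.825%.

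For the other members of the Pitx3eGFP/eGFP cells the interval of the difference included 0: Neurog2 9.09% of Th-high and 14.1% of Th-low cells, Nhlh1 3.896% and 2.35%, Nhlh2 75.3% and 65.9%, Notch1 1.30% and 1.18%, Hes5 6.49% and 3.53%, and Hes6 76.6% and 80%. The Th-high cells were somewhat deeper, with medians of 905341 and 746212 reads. Cut to 500000 reads in each cell, the Dll1 difference was 5.59 points, the Neurod1 difference -15.9 and the Dll3 difference -24.4 points. With each of the 3 plates left out in turn, Neurod1 ran from -26.2 to -14.1 points, the last without plate 4, and Dll3 from -31.3 to -20.8 points. The 20-point call held for Dll3 alone without plate 5 and for 4 members without plate 6, settings for which the share of all genes called was not computed.

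**Figure D2:**
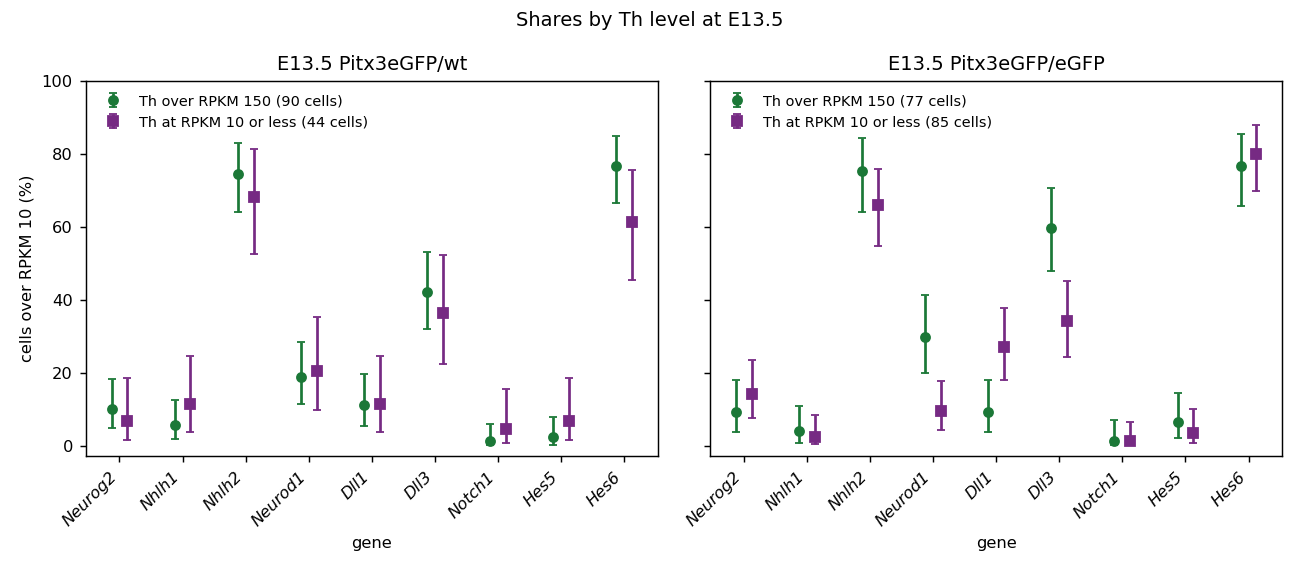
Share of E13.5 cells over RPKM 10 (y axis, percent) for the 9 genes (x axis) in Th-high and Th-low cells of each genotype, with exact 95% intervals for counting error. In Pitx3eGFP/eGFP cells Dll3 stands at 59.7% and 34.1% and Dll1 at 9.09% and 27.1%, while the Pitx3eGFP/wt classes overlap for every gene.

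Between genotypes within a Th class, Dll3 was higher in Th-high Pitx3eGFP/eGFP cells by 17.5 points (2.32 to 31.6). The Dll3 length was under 1000 bases in 15.3% of 72 Pitx3eGFP/eGFP and 5.17% of 58 Pitx3eGFP/wt cells of E13.5, and a short length raises RPKM. With 1 length for all cells the difference was 16.03 points (0.85 to 30.2). Among Th-low cells, Dll1 was higher in Pitx3eGFP/eGFP by 15.7 points (0.59 to 27.8), Hes6 higher by 18.6 points (2.48 to 35.01), and the difference for Nhlh1 was -9.01 points (-21.7 to -0.35). Of all genes, 10.8% lay over 0 and 2.77% under 0 in Th-high cells, where 1 of 6 members lay over 0 and none under. In Th-low cells 11% of genes lay over 0 and 2.62% under, where 2 of 7 members lay over and 1 under. These counts are small, and genotype cannot be told apart here from library preparation and depth. Nhlh1 in Th-low cells passed the 5% filter through the Pitx3eGFP/wt cells alone, so for it only a lower share was possible. The make-up of the cells also differed. Slc6a3 was over 150 RPKM, without Nxph4 over it, in 25 Pitx3eGFP/wt cells of E13.5 and 1 Pitx3eGFP/eGFP cell. Th was at 1 RPKM or less in 9 of 44 Th-low Pitx3eGFP/wt cells and 53 of 85 Th-low Pitx3eGFP/eGFP cells. The part of this make-up in the differences was not tested.

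At later stages Neurod1 was the more frequent in Th-low cells, by comparisons added after the data had been seen. Among Pitx3eGFP/wt cells, Neurod1 was detected in 5.88% of Th-high and 41.9% of 31 Th-low cells at E15.5 (36.1 points, 19.3 to 53.6), and at E18.5 the Th-low share was 19.2 points higher (7.14 to 35.2). At P1 the shares were 5.23% and 37.1% (31.9 points, 20.1 to 44.6) in Pitx3eGFP/wt cells and 9.30% and 42.3% (33.01 points, 18.2 to 47.2) in Pitx3eGFP/eGFP cells. The gap was smaller later, at 6.71 points at P7 (-6.92 to 22.9) and 9.63 points at P90 (0.72 to 19.6). By the 20-point call, which after E13.5 was run at P1 alone, Neurod1 was the 1 of 6 members called higher in Th-low Pitx3eGFP/wt cells, against 0.373% of 12610 genes, and no member was called lower, against 2.2%.

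Other members also differed by Th in some of the later groups. Among genes detected in at least 5% of the cells, the interval lay over 0 for 4%, 4.26%, 3.17%, 5.81% and 8.31% of genes in the Pitx3eGFP/wt groups after E13.5 by rising age and for 4.05% in P1 Pitx3eGFP/eGFP cells. It lay under 0 for 3.55%, 5.5%, 13.3%, 15.6%, 5.71% and 6.98%. Of the 6 or 7 members that could be counted, 2, 1, 1, 2, 2 and 2 lay over 0 and 0, 1, 1, 1, 0 and 1 under. Notch1 at P7 and in P1 Pitx3eGFP/eGFP cells passed this filter through the Th-low cells alone, so only a higher share was possible. Dll3 was higher in Th-low cells at E15.5 by 26.7 points (6.94 to 44.2) and at P90 by 12.8 points (0.63 to 24.6). Th-low minus Th-high for Nhlh2 was -18.2 points at P1 (-30.7 to -3.84) and -39.4 points at P7 (-55.5 to -18.1), with shares of 60% and 20.6% at P7, and -17.4 points in P1 Pitx3eGFP/eGFP cells (-32.98 to -0.18). For Hes6 it was -23.5 points at E18.5 (-40.4 to -7.17). At P7 Notch1 was detected in 2% of Th-high and 47.1% of Th-low cells, and Hes5 in 10% and 38.2%. Notch1 was also higher in Th-low cells at P1, by 6.77 points in Pitx3eGFP/wt (0.41 to 16.8) and 12.7 points in Pitx3eGFP/eGFP cells (2.27 to 25.4), and Neurog2 was at 3.23% and 0 in P1 Pitx3eGFP/wt cells (0.03 to 11.02). In P1 Pitx3eGFP/wt cells with spike-in RNA alone the Notch1 difference was -2.99 points. For all other members in the groups after E13.5 the interval included 0. Of the 10 mDA markers 0 were detected in the majority of the Th-low cells of P7, and the summed level of the 8 radial glia markers ran up to 18641 RPKM. With every cell holding at least 3 markers of another type left out, the Neurod1 difference of P1 Pitx3eGFP/wt cells was 33.4 points. The part of other cell types in the E15.5 difference was not tested.

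**Figure D3:**
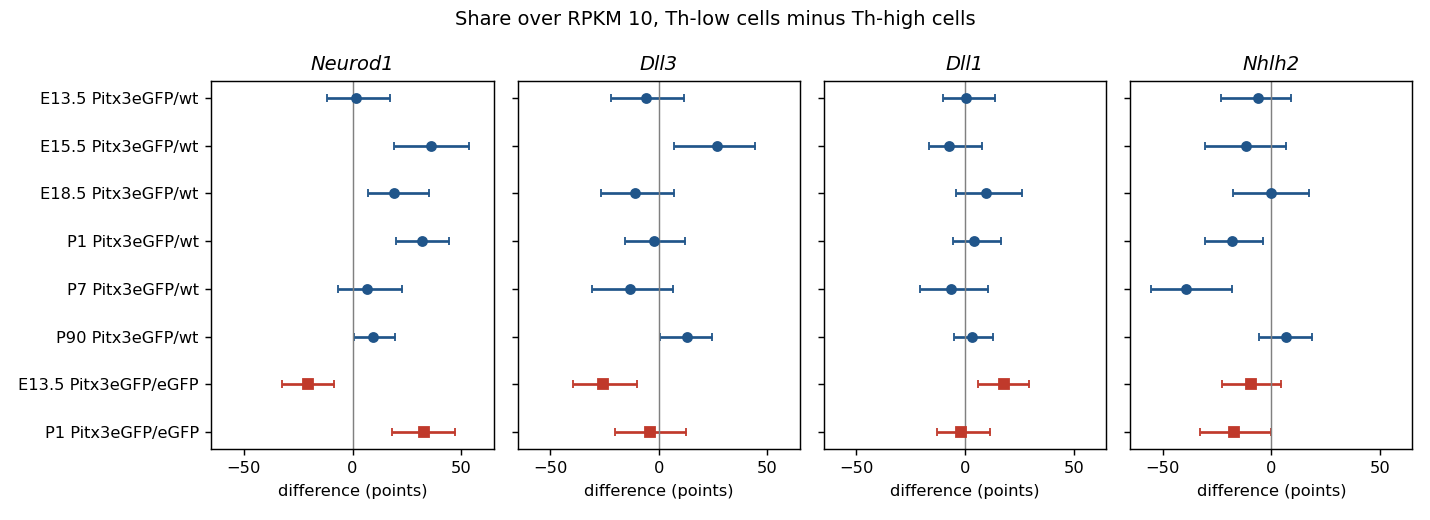
Share in Th-low cells minus share in Th-high cells (x axis, percentage points) in each stage and genotype (y axis), with 1 panel each for Neurod1, Dll3, Dll1 and Nhlh2; circles are Pitx3eGFP/wt, squares Pitx3eGFP/eGFP and bars Newcombe 95% intervals for counting error. Neurod1 lies at -20.5 points in E13.5 Pitx3eGFP/eGFP cells and at 36.1 points in E15.5 cells, and Nhlh2 at -39.4 points in P7 cells.

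Cells over 150 RPKM for Nxph4, which encodes a secreted neurexophilin, were compared with cells over 150 RPKM for Slc6a3, the dopamine transporter of mature mDA neurons. Cells over 150 RPKM for both were in neither class, and the comparison was a further description chosen after the data had been seen. At E13.5 and E15.5 together, Neurod1 was detected in 31.1% of 61 Nxph4-high cells and 0 of 63 Slc6a3-high cells (31.1 points, 19.4 to 43.6). Dll3 was detected in 72.1% and 17.5% (54.7 points, 38.1 to 66.9), with means of 150.3 and 14.4 RPKM. Nhlh2 was detected in 77.05% and 55.6%, Nhlh1 in 16.4% and 0 of 63, and Neurog2 in 11.48% and 1.59%. Thus all 4 proneural factors and Dll3 had the higher share in the Nxph4-high cells. These are 5 of 7 members with an interval over 0, against 7.94% of genes, and none under 0, against 6.51%. Neurod1, Nhlh1 and Neurog2 passed the 5% filter through the Nxph4-high cells alone, so for them only a higher share was possible. The classes also mix the stages differently: 38 of the 61 Nxph4-high and 25 of the 63 Slc6a3-high cells were of E13.5. The part of stage in the Neurog2, Nhlh1 and Nhlh2 differences was not tested. Intervals included 0 for Dll1 (13.1% and 11.1%), Hes5 (3.28% and 3.17%) and Hes6 (73.8% and 82.5%), and Notch1 was detected in neither class. Markers of progenitors moved with these classes: at least 3 of the 8 were detected in 14.8% of Nxph4-high and 3.17% of Slc6a3-high cells. The summed level of the 8 ran from 0 to 1328 RPKM (median 259.3) in the Nxph4-high cells and from 0.348 to 733.8 RPKM (median 79.8) in the others, and Sox2 and Nes were detected in no cell of either class. With cells holding at least 3 markers of another type left out, the differences were 26.9 points for Neurod1, 49.3 for Dll3 and 15.7 for Nhlh2, the last under the 20-point limit. By the 20-point call, 3 of 7 members, Nhlh2, Neurod1 and Dll3, were higher in Nxph4-high cells, against 3.55% of 11266 genes, and none lower, against 2.73%.

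For Neurod1 and Dll3 the difference had the same direction at E13.5 and at E15.5. At E13.5, Neurod1 was detected in 18.4% of 38 Nxph4-high cells and 0 of 25 Slc6a3-high cells, and Dll3 in 65.8% and 20%. At E15.5 Neurod1 was detected in 52.2% of 23 and 0 of 38 cells, and Dll3 in 82.6% and 15.8%. In E13.5 Pitx3eGFP/eGFP cells the comparison could not be made, since 59 cells were Nxph4-high and 1 was Slc6a3-high.

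Over E18.5, P1 and P7, Neurod1 was detected in 56.7% of 67 Nxph4-high and 1.42% of the Slc6a3-high cells (3 cells) (55.3 points, 43.1 to 66.5), while Dll3 stood at 49.3% and 37.3% (11.99 points, -1.40 to 25.2). Neurog2 was at 4.48% and 0 (1.04 to 12.4) and Nhlh1 at 2.99% and 0 (0.18 to 10.2). The intervals included 0 for Nhlh2 (52.2% and 41.5%), Dll1 (13.4% and 16.5%), Notch1 (2.99% and 2.36%), Hes5 (16.4% and 9.43%) and Hes6 (74.6% and 66.5%). Of the 6 members detected in at least 5% of these cells, Neurod1 alone lay off 0, against 5.86% of genes over 0 and 10.4% under 0. Neurod1 passed this filter through the Nxph4-high cells alone, so for it only a higher share was possible. At least 3 progenitor markers were found in 19.4% of Nxph4-high and 4.72% of Slc6a3-high cells, and without cells holding 3 markers of another type the Neurod1 difference was 56.1 points. By stage, the Neurod1 shares were 52.9% and 0 at E18.5, 62.5% and 1.87% at P1, and 40% and 3.70% at P7. Neurod1 was the 1 of 6 members called higher, against 1.23% of 12505 genes, with none lower, against 2.05%. At P90, Neurod1 was detected in 27.4% of Nxph4-high cells (46 cells) and 1.45% of 69 Slc6a3-high cells, Nhlh2 in 63.7% and 33.3%, and Dll3 in 54.2% and 30.4%. Hes5 was at 10.7% and 1.45% (9.27 points, 1.88 to 14.98). The intervals included 0 for Neurog2 (5.36% and 0), Nhlh1 (0.595% and 0), Dll1 (14.9% and 14.5%) and Hes6 (57.7% and 62.3%), and Notch1 was in neither class. Thus 4 of 6 members lay over 0, against 16.1% of genes, and none under 0, against 7.15%. These 3 of 6 members were called higher, against 3.91% of 12725 genes, and none lower, against 2.36%. At RPKM over 50 in place of 10, none of the 3 was called. In P1 Pitx3eGFP/eGFP cells Neurod1 was detected in 87.5% of 24 Nxph4-high cells and 0 of 15 Slc6a3-high cells.

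**Figure D4:**
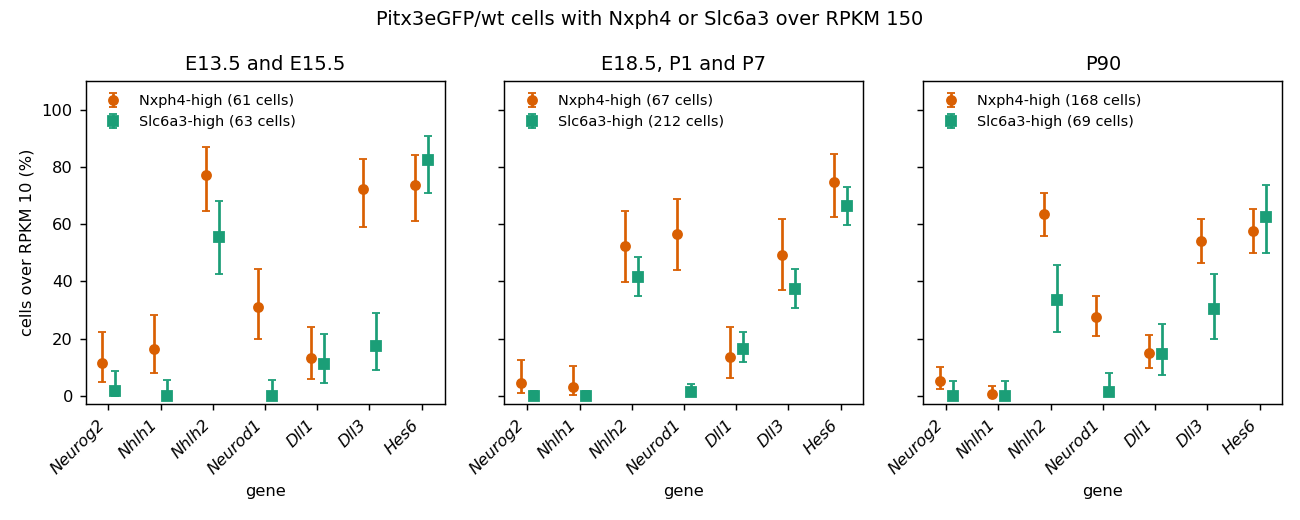
Share of cells over RPKM 10 (y axis, percent) for 7 of the genes (x axis, without Notch1 and Hes5) in Nxph4-high and Slc6a3-high Pitx3eGFP/wt cells at 3 stage ranges, with exact 95% intervals for counting error. Neurod1 is at 31.1%, 56.7% and 27.4% of Nxph4-high cells and at 0, 1.42% and 1.45% of Slc6a3-high cells, and Dll3 is widest apart at E13.5 and E15.5.

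Across E13.5 cells Nhlh1, Nhlh2, Neurod1 and Dll3 had positive r with each other, and Dll1 had r near or under 0 with them. Across 140 Pitx3eGFP/wt cells Pearson's r of log2(RPKM + 1) was 0.43 for Nhlh1 and Dll3, 0.40 for Nhlh2 and Dll3, 0.40 for Neurod1 and Dll3, and 0.35 for Nhlh2 and Neurod1. In the Pitx3eGFP/eGFP cells the same pairs had r of 0.33, 0.44, 0.41 and 0.33. These are descriptions across cells that share animals, plates and a sort, and depth differs between the cells. Dll1 had r between -0.07 and 0.06 with every other member in Pitx3eGFP/wt cells, and -0.18 with Dll3 in Pitx3eGFP/eGFP cells.

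In shares, Dll3 was detected in 74.1% of the 27 Neurod1-positive and 33.6% of the Neurod1-negative Pitx3eGFP/wt cells, and in 81.1% and 35.9% in Pitx3eGFP/eGFP cells. All 10 Nhlh1-positive Pitx3eGFP/wt cells and all 7 such Pitx3eGFP/eGFP cells also had Nhlh2. Dll3 was present in 9 of those 10 and 7 of those 7. Neurod1 was detected in 25.7% of Nhlh2-positive and 2.56% of Nhlh2-negative Pitx3eGFP/wt cells. The Nhlh1-positive cells were thus a subset of the Nhlh2-positive cells in both genotypes. The median cell of both genotypes had 2 of the 9 members over RPKM 10, and the highest had 6.

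**Figure D5:**
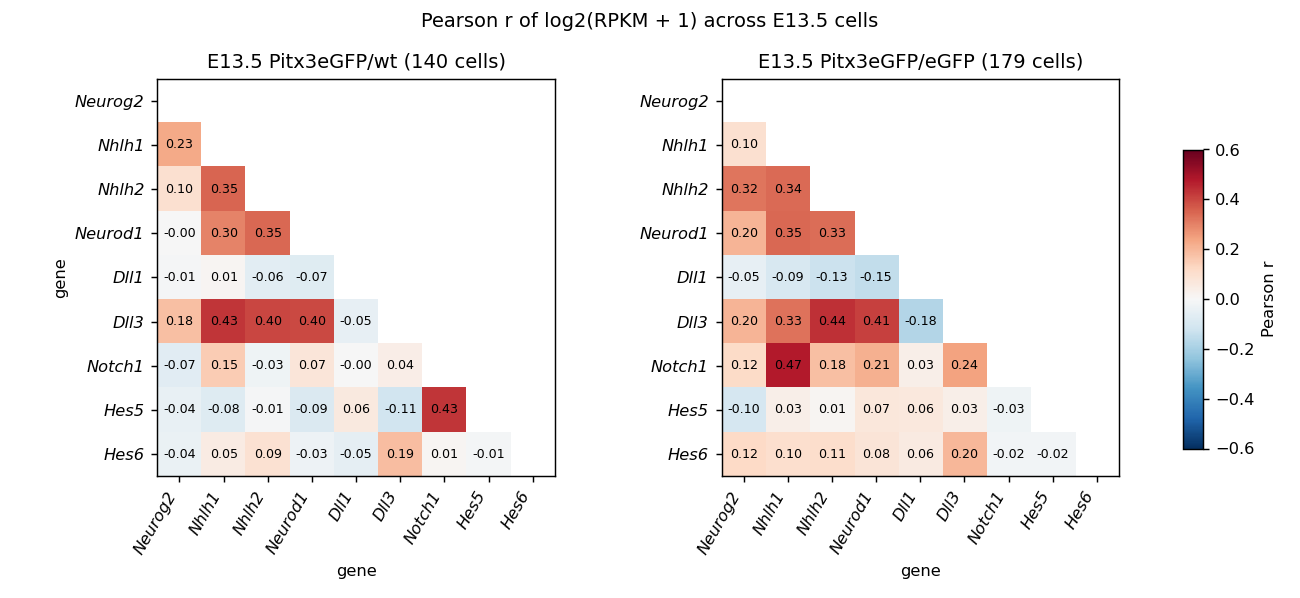
Pearson's r of log2(RPKM + 1) between the 9 genes (both axes) across E13.5 cells of each genotype, shown by colour. The block of Nhlh1, Nhlh2, Neurod1 and Dll3 reaches 0.43 in Pitx3eGFP/wt cells, and Dll1 stays between -0.07 and 0.06 there.

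The genes whose level across E13.5 Pitx3eGFP/wt cells was most like that of Dll3 were Igfbpl1 (r of 0.70, and 0.51 in Pitx3eGFP/eGFP cells), Hepacam2 (0.59 and 0.47), E130114P18Rik (0.55 and 0.52), Nfib (0.55 and 0.44) and Gm2830 (0.55 and 0.35). Igfbpl1 was also among the 5 most like Nhlh2 (0.47 and 0.45) and was the first for Neurod1 (0.43 and 0.48). The other genes most like Nhlh2 were Fam210b, Nxph3, Elmo1 and Tcf12, the last encoding an E protein, the kind of partner with which proneural factors pair (0.46 and 0.62). For Neurod1 they were Cald1, Dll3, Slc17a6, the vesicular glutamate transporter (0.38 and 0.30), and the midbrain factor Otx2 (0.37 and 0.24). The genes most like Dll1 and Hes6 did not recur: the first for Dll1, Wrap73, had r of 0.38 and 0.01, and the first for Hes6, Tpm3-rs7, 0.34 and 0.01.

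Of 53 other genes on lists of the 2 pathways, 8 were detected in the majority of E13.5 Pitx3eGFP/wt cells. Of 32 that could be called between Th classes, 1 was, beside 1.55% of all genes lower and 1.11% higher: Dlk1, a non-canonical ligand that lacks the Delta domain needed to activate Notch, had a Th-low minus Th-high difference of -30.9 points in Pitx3eGFP/wt and -24.2 points in Pitx3eGFP/eGFP. From E13.5 to E15.5, 5 of the 41 that passed the filter were at least 2-fold lower (12.2%, beside 7.22% of all genes), and 3 at least 2-fold higher (7.32%, beside 7.45%). Of those with a mean of at least 10 RPKM, Dlk1 (log2 -1.37) and the Notch target Hey1 (-1.26) were lower, and the non-canonical ligand Dlk2 (2.13), the Notch-cleaving protease Adam17 (1.32) and the gamma-secretase subunit Psen2 (1.07) were higher. From E15.5 to E18.5, 4 of 41 were lower (9.76%, beside 5.29% of genes), and 2 higher (4.88%, beside 11.5%). Chosen after their values were seen, the lower ones are the E proteins Tcf12 (-2.40) and Tcf4 (-1.18), the Notch DNA-binding partner Rbpj (-1.07) and the Notch target Nrarp (-1.15), and the higher ones are Neurod6 (1.53) and Fbxw7 (1.20), which marks the Notch intracellular domain for degradation. Dner, another non-canonical ligand, was detected in 97.9% of E13.5 cells, against 19.3% for Jag2 and 0 of 140 for Neurog1.

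Some exon bases are shared with overlapping genes, on the opposite strand unless stated, and strand is not kept. Hes5 shares 433 of its 1363 exon bases with Gm20421, and Gm20421 was over RPKM 10 in 46.5% of Hes5-positive cells (60 cells) and in 0.590% of the others. Dll1 shares 867 of 4219 bases with A930024N18Rik, which was over RPKM 10 in 3.42% of Dll1-positive cells (8 cells). Neurod1 shares bases with Cerkl, on the same strand, and with Gm26755. Notch1 shares 1068 of 14232 bases with 0610009E02Rik, which was over RPKM 10 in 6.78% of Notch1-positive cells, and 414 with Gm13568, which was detected in none. Reads in those stretches cannot be assigned to 1 of the genes.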

How the data were processed

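Single cells sorted for eGFP from the ventral midbrain of Pitx3eGFP mice were sequenced with Smart-seq2, and each cell has a table of gene entries. The authors aligned reads with STAR to mm10, per the submitters' processing notes, and deposited raw read counts per gene, which were used here for depth, thinning and filters. The authors also deposited RPKM values, normalized to transcript length and to mapped reads in each cell, with the length depending on the isoforms detected. No columns of unlisted samples were present.

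Cells were kept with over 100000 reads on genes and 15% or more of the genes with a read, or 3.4% for P90 cells. Entries without a symbol held 0.211% of reads and were kept in the totals, 864 entries share an identifier, and 45 values have reads but an RPKM of 0. Cells with at least 3 of 12 oligodendrocyte-lineage markers over RPKM 10, among them Olig1, Olig2 or Sox10, were left out; cells with 3 others of the list were kept. This is a marker rule per cell in place of clustering, and no doublet caller was run on these plate-sorted cells. No pair of cells had identical counts (0 pairs).

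A gene was called detected over RPKM 10. Th, Slc6a3 and Nxph4 were high over 150 RPKM, and Th was low at 10 or less. Cells high for both Slc6a3 and Nxph4 were in neither of those classes. Means were compared as log2(mean RPKM + 1), a scale that understates the change of low genes, with calls at a 2-fold difference and a mean of at least 1 RPKM in either group. Shares were compared with calls at 20 percentage points and a share of at least 5% over both groups together. A member under 5% in 1 group passed through the other group alone, so for it only 1 direction was possible. Genes with an interval off 0 were also counted. Each call rule was run over all genes, which gives the shares of genes called. With 1 sample per stage and genotype there are no tests. All cells were also thinned to 500000 and to 100000 reads, since depth differs between groups. Scripts used Python 3.11.15, numpy 2.4.6, pandas 2.3.3, scipy 1.17.1 and matplotlib 3.10.9, and were tested on simulated data.

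The members, the pathway lists and the marker lists were chosen with earlier results of these data known. All 9 members are named in each comparison, except that for Th classes after E13.5 those whose interval included 0 are mostly given together. Other pathway genes are named where they differ by 20 points between the Th classes of E13.5 Pitx3eGFP/wt cells, or by 2-fold between E13.5 and E15.5 with a mean of at least 10 RPKM, and the genes most like a member are the 5 with the highest r. Other genes of the lists, and Notch1-positive cells' markers, are given as context and were picked after their values were seen. The comparisons by Nxph4 and Slc6a3, and by Th after E13.5, were added after the data were seen.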

Additional observations from a re-analysis of the deposited data

Results flagged for a closer look

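Notch1 and Hes5 were frequent in the cells left out for oligodendrocyte-lineage markers, beyond their shares in the kept cells of the same groups. At P1, Notch1 was over RPKM 10 in 77.1% of the 48 left-out Pitx3eGFP/wt cells and 4.49% of the kept cells, and Hes5 in 72.9% and 11.99%. At P7 the shares were 87.6% of 89 left-out cells and 20% of kept cells for Notch1, and 75.3% and 21.1% for Hes5. In P1 Pitx3eGFP/eGFP cells they were 73.9% of 23 left-out cells and 10.7% for Notch1, and 82.6% and 11.3% for Hes5. The list that defined the cells holds neither gene. These cells are not named as a type: over all groups, 3 of the 12 oligodendrocyte-lineage markers, 5 of 8 radial glia markers and 4 of 7 astrocyte markers were detected in the majority of them, with median summed levels of 1072, 5666 and 2533 RPKM.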

How the results depend on the processing

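No paired analysis was possible because each stage and genotype is 1 sample and no result comes from a test. Counts of members called are given below with the count in the report first. The share of all genes called was not computed for the alternative settings, so these counts have no background beside them. For E15.5 against E13.5 (2), the count was 1 with genes detected counted over all entries and 1 with reads pooled over cells, and 0 with the highest cell left out and 0 with cells holding 3 or more markers of another type left out. Such cells are called cells of another type below by that marker rule only. Of the 18 E13.5 Pitx3eGFP/wt cells with at least 3 radial glia markers, 11 were Th-high, so the setting also leaves out Th-high cells. For E18.5 against E15.5 (4), it was 2 thinned to 100000 reads, 2 without the highest cell and 2 without cells of another type. For genotype at E13.5 (2), it was 1 thinned to 100000 reads, 0 without the highest cell and 0 without cells of another type, and 2 to 3 with 1 plate left out. For genotype at P1 (1), it was 0 with the cells left out for oligodendrocyte-lineage markers kept, 2 with a pseudocount of 0.1, 2 in spike-in cells alone, 0 without cells of another type, and 0 to 2 with 1 plate left out.

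For Th classes of E13.5 Pitx3eGFP/wt cells (0), it was 1 (Neurod1) with Th-low at 1 or less, which leaves 9 cells. For E13.5 Pitx3eGFP/eGFP cells (2), it was 0 at RPKM over 50, 1 over all entries, 1 by reads alone, 1 thinned to 500000 reads, 1 without cells of another type, and 1 to 4 with 1 plate left out. For P1 (1), it was 4 with the cells left out for oligodendrocyte-lineage markers kept, 2 in cells without spike-in and 2 with Th-low at 1 or less. For Nxph4-high against Slc6a3-high cells it was 5 over RPKM 1 and 2 without cells of another type in place of 3 at E13.5 and E15.5, and 0 over RPKM 50 in place of 3 at P90. Cells with 3 or more members made up 45% of E13.5 Pitx3eGFP/wt cells and 33.6% over RPKM 50, and 46.9% of Pitx3eGFP/eGFP cells, 57.5% over RPKM 1, 23.5% over RPKM 50 and 45% to 50% with 1 plate left out.

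The log2 difference of Hes5 changed sign. From E15.5 to E18.5 it was 0.67 with the cells left out for oligodendrocyte-lineage markers kept, 0.072 with that rule set at 2 markers and 0.014 without cells of another type. For genotype it was 0.38 and 0.99 at E13.5 without the highest cell or cells of another type, and 0.61, 1.98 and 0.73 at P1 over all entries, in spike-in cells, or without cells of another type. The cause was not tested beyond what each setting removes. Of 1512 share differences under alternatives, 1455 moved by less than the counting interval and 57 moved further. A change of sign was counted only for the 11 differences of at least 20 points, and 0 of these changed sign. Smaller differences could change sign without being counted, as Notch1 did between Th classes at P1. The settings that leave out the highest cell or cells of another type, or fix 1 length per gene, were chosen after the data were seen.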
